A study of Mus musculus with 24 samples.

Results

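The dystrophin complex and the water channel it anchors were followed in mouse gastrocnemius, a calf muscle rich in fast fibers, 24 h after a severe burn in young and adult mice. The 8 genes were found in the gene counts by their Ensembl identifiers out of 55401 genes in all: Dmd (dystrophin), Dag1 (dystroglycan), Sgca, Sgcb and Sgcd (α-, β- and δ-sarcoglycan), Sntb1 (β1-syntrophin), Dtna (α-dystrobrevin) and Aqp4 (aquaporin 4). Every one of the 8 passed the filter on low counts that left 12651 genes for testing. The mice were male C57BL6 animals with no genetic modification named. Young mice were 5 weeks old at injury and adult mice 11 weeks old. Burned mice had a scald over 25% of the body surface under anesthesia and analgesia, with saline given before it and lactated Ringer's solution during the procedure. Sham mice had the anesthetic and the analgesic but neither scald nor resuscitation fluid, so burn and that fluid cannot be told apart. Whether they had the saline is not stated outright. There were 3 mice in each of the 4 groups, named by age and treatment: sham mice were young (YS) or adult (AS), and so were burned mice (YB and AB). A group is thus a few animals of 1 sex and 1 strain at 1 time after injury.

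In muscle, dystrophin lies under the fiber membrane and links cortical actin to dystroglycan, whose outer subunit holds laminin in the basal lamina. The sarcoglycans brace that link within the membrane, while syntrophins and dystrobrevin form a cytoplasmic platform that carries signaling proteins and, through a syntrophin, aquaporin 4. Mutations of dystrophin or the sarcoglycans cause muscular dystrophy, and loss of dystrophin is accompanied by loss of aquaporin 4 from the membrane of fast fibers.

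RefSeq entries of regions before the gene start, on GRCm38.p6, matched 5 of the 8 members, and those of Dmd and Sgca are shown because these genes encode the scaffold of the complex and the member with the highest level per length. Each run is the 250 bases before the start, 5′ to 3′ on the gene's strand, for Dmd X:82948620-82948869 (plus) and for Sgca 11:94976328-94976577 (minus). Capitals mark matches to CANNTG, the E-box that myogenic factors such as MyoD bind, which reads the same on both strands.
Dmd: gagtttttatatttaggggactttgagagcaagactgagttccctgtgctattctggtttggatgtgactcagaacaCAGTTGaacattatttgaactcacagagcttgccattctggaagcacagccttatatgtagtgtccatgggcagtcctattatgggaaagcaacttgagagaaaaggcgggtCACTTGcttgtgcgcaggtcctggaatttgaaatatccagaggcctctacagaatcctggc
Sgca: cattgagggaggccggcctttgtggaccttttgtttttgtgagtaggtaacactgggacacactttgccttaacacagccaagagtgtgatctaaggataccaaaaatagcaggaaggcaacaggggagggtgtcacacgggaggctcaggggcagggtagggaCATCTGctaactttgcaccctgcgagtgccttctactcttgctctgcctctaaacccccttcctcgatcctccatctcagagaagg
The Dmd region held 2 matches, CAGTTG and CACTTG, beginning 173 and 61 bases before the start, and the Sgca region held 1, CATCTG, beginning 86 bases before it. Of 32851 such regions in RefSeq, 66.2% held at least 1 match and 31.8% at least 2, so these matches are common and are only a description.

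In the GRCm38 mouse genome, with the Gencode M21 annotation, Dmd lies on chromosome X at 82948870 to 85206141 on the plus strand. Dag1 is on chromosome 9 at 108204634 to 108263958, Sgcb on chromosome 5 at 73632749 to 73647790 and Sntb1 on chromosome 15 at 55636388 to 55906949, all 3 on the minus strand. Sgca, at 94962791 to 94976327, and Sgcd, at 46896253 to 47988969, share the minus strand of chromosome 11. Dtna, at 23415135 to 23659715 on the plus strand, and Aqp4, at 15389496 to 15410982 on the minus strand, are both on chromosome 18. All are protein-coding, and the counts are over their exons. The sources used here do not say whether counting used the strand, so reads of an overlapping gene on the other strand cannot be told apart from a member's own. The overlapping genes themselves held few counts over the 12 libraries, at most 63, for the Gm14769 pseudogene within Dmd, on the strand of Dmd. On the strand opposite to a member the most was 55, for Gm47898, which overlaps Dtna.

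The libraries held between 4392605 and 5688512 counts. Levels are CPM, counts relative to the library total after TMM scaling over the 12 libraries. YB replicate 2 stood apart. Its correlation with the other libraries of its group was 0.945, against 0.973 to 0.988 for the other 11, and its summed level of 6 muscle fiber genes was 71500 CPM, against 87300 to 138000. The study left 1 young burn animal out of its heat map of the burn effect and showed replicates 1 and 3. The tests here therefore used 11 libraries, and each edgeR call from them is also given with all 12. With the 12 libraries no member was called in any of the 6 comparisons by edgeR, although 3 members were at an unadjusted p under 0.05 for YS against AS, 1 for AB against AS, 1 for YB against YS, 4 for YB against AB, 0 for the interaction and 2 for burn beside age. Over all genes the 12 libraries gave calls for 3.76% in YS against AS, 0.00806% in AB against AS, 0.0645% in YB against YS, 10.8% in YB against AB, 0 in the interaction of burn and age and 0.717% for burn beside age. Muscle fiber markers were present in every library, and the keratin genes Krt5 and Krt14 of skin were at 0. The other keratin listed, Krt10, was at 4.56 to 10.9 CPM over the 12 libraries. It was higher in YS than in AS (0.93 on the log2 scale, edgeR adjusted p = 0.00828), a call kept with 12 libraries. Neutrophil markers summed to 1.42 to 3.17 CPM in YS and 8.78 to 8.79 in the 2 YB libraries used, and to 1.48 to 4.14 in AS and 5.96 to 12.9 in AB. YB replicate 2 was at 27 CPM, the highest of the 12 libraries. Of 2 such markers tested, edgeR called 1 higher in YB against YS (0.664% of all genes called) and 0 in AB against AS (0.909%). For burn beside age it called 2 higher (2.15%). With 12 libraries these counts were 0, 0 and 1.

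Levels per kilobase of exon set the members in a wide order. In the 3 AS libraries Sgca was at 102 ± 1.63 CPM per kilobase (SD, n = 3), Dag1 at 40.6 ± 1.75, Sgcb at 33.5 ± 3.02, Aqp4 at 6.72 ± 0.986, Dtna at 5.16 ± 0.231, Dmd at 3.48 ± 0.32, Sntb1 at 1.87 ± 0.185 and Sgcd at 0.824 ± 0.158. Lengths are the union of all annotated exons, 23801 bases for Dmd, which sets genes with many alternative exons low. The paper's RNA quality report gives no integrity number for any sample, and the effect of RNA integrity on this order was not tested. Aqp4 changed its place with the group: it was at 10.2 ± 1.51 CPM per kilobase in YS, above Dtna and Dmd, and at a mean of 1.77 in AB, below both. Sgcb was above Dag1 in YS, with means of 43.1 and 31.8 CPM per kilobase.

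**Figure D1:**
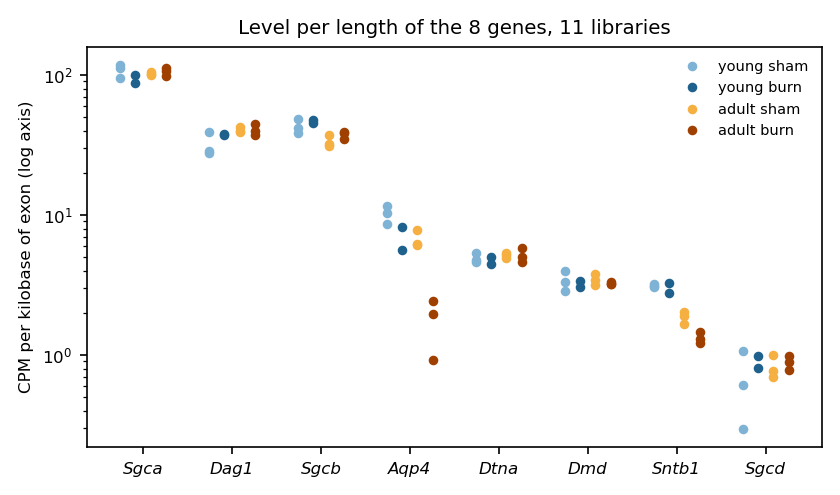
Level of the 8 genes in CPM per kilobase of exon on a log axis, 1 point for each of 11 libraries, colored by group and ordered by the median over libraries. Sgca is highest and Sgcd lowest, and the AB points of Aqp4 lie below those of the other groups.

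Aqp4, the water channel of the fast fiber membrane, had the largest difference between groups of the 8 genes. In AS its level was 38.7, 38.1 and 49.0 CPM (41.9 ± 6.14, n = 3) and in AB it was 15.1, 5.78 and 12.3 CPM (11 ± 4.77, n = 3). The highest AB library was below the lowest AS library. In edgeR's quasi-likelihood test Aqp4 was 3.78-fold lower in AB, a log2 difference of -1.92 (SE 0.25, 95% interval -2.44 to -1.39, adjusted p = 0.00224). It was the 1 member of 8 called in this comparison, in which 0.909% of all genes were called. With 12 libraries the log2 difference was also -1.92 but the adjusted p was 0.603. A fit of the 6 adult libraries alone, which YB replicate 2 does not enter, gave -1.92 with an adjusted p of 0.00653. In bulk muscle, fewer fibers that make Aqp4 and less Aqp4 RNA per fiber cannot be told apart.

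In the young mice Aqp4 was at 53.6, 72.3 and 64.6 CPM in YS (63.5 ± 9.41, n = 3) and at 51.4 and 34.9 CPM in the YB libraries used (43.2 ± 11.7, n = 2), with 2.74 CPM in YB replicate 2. Both YB values were below all YS values, by 0.54 on the log2 scale (95% interval -1.04 to -0.04), which did not pass (adjusted p = 0.275). YB replicate 2 had the lowest Aqp4 level of the 12 libraries, and with it the log2 difference was -1.10 (adjusted p = 0.284). The size of the young result therefore rests on whether that mouse is counted.

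The burn effect on Aqp4 was -0.54 in young and -1.92 in adult mice on the log2 scale. The effect in young minus that in adult mice was 1.38 (SE 0.34, 95% interval 0.65 to 2.10, edgeR unadjusted p = 0.00101). It was not called by edgeR (adjusted p = 0.21). DESeq2 called it (1.36, adjusted p = 0.0438), and with 12 libraries edgeR gave 0.82 (adjusted p = 0.839). None of the other 7 members was called in this interaction by either tool, against 0.0949% of all genes called by edgeR. In the model of the study's kind, which adds burn to age, Aqp4 was again the 1 member called, with a log2 difference of -1.20 after burn by edgeR (SE 0.24, adjusted p = 0.0179, 2.15% of all genes called). That call was lost without YB replicate 3 (adjusted p = 0.0592) and with 12 libraries (adjusted p = 0.0987).

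Between ages, Aqp4 was 3.91-fold higher in YB than in AB (log2 difference 1.97, SE 0.26, edgeR adjusted p = 0.000322). With YB replicate 2, whose Aqp4 was below every AB library, the log2 difference was 1.42 and the adjusted p 0.147. Between the sham groups Aqp4 was higher in each YS library than in any AS library, by 0.59 on the log2 scale (95% interval 0.14 to 1.04), which did not pass (edgeR adjusted p = 0.0802) but did in a fit of the 2 sham groups alone (adjusted p = 0.0245). The order of the group means was thus YS, then YB and AS, then AB, and YB and AS overlapped.

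**Figure D2:**
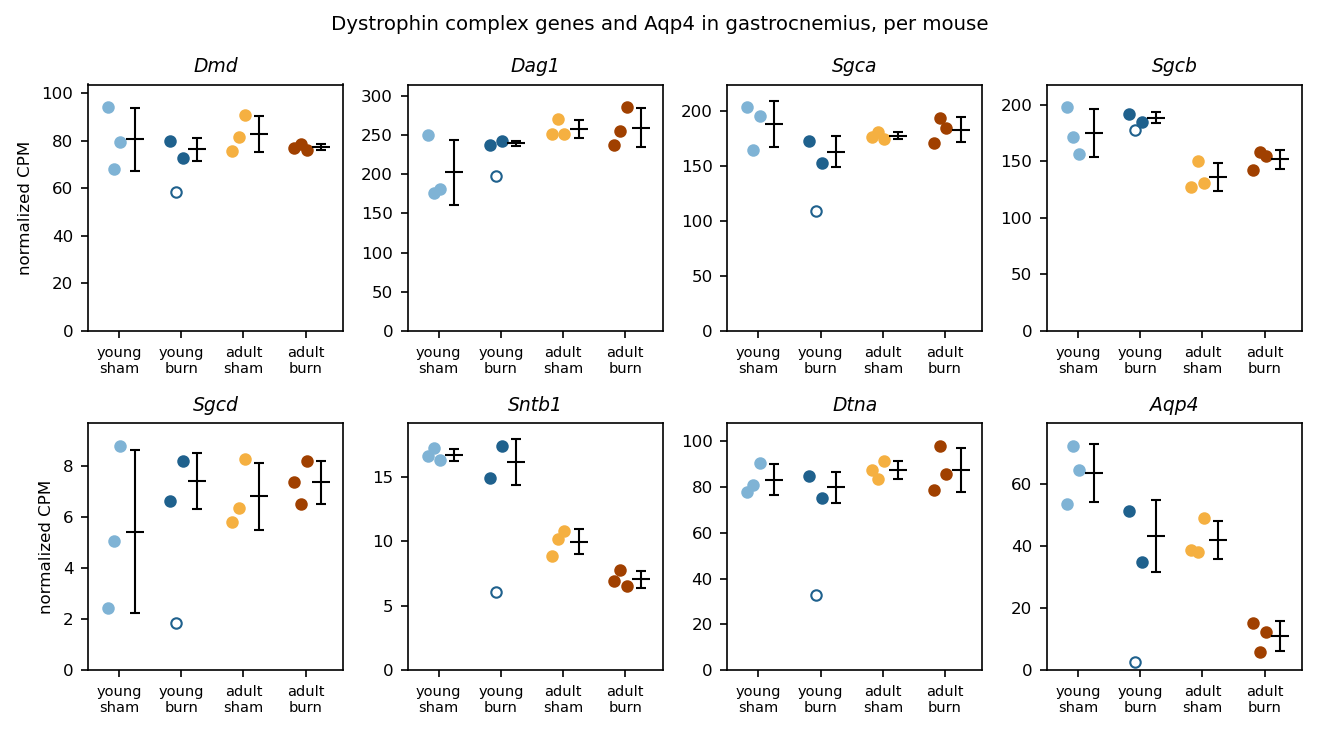
Normalized level (CPM) of the 8 genes in each mouse, with the mean ± SD at the right of each group. The open circle is YB replicate 2, which is not in the mean; in the Aqp4 panel the 3 AB points lie between 5.78 and 15.1 CPM, below all AS points, and the open circle lies at 2.74.

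Sntb1 encodes β1-syntrophin, an adaptor that binds dystrophin and carries signaling proteins. Its level was 16.6, 17.2 and 16.3 CPM in YS (16.7 ± 0.457, n = 3) and 8.89, 10.2 and 10.8 CPM in AS (9.97 ± 0.983, n = 3), with a wide gap between the groups. Sntb1 was 1.67-fold higher in YS (log2 difference 0.74, SE 0.15, 95% interval 0.41 to 1.06, edgeR adjusted p = 0.00784). After burn the gap was larger: YB libraries were at 14.9 and 17.4 CPM (16.1 ± 1.77, n = 2) and AB libraries at 6.88, 7.77 and 6.50 CPM (7.05 ± 0.655, n = 3), a 2.29-fold difference (log2 1.19, SE 0.17, adjusted p = 0.000451). Both age calls held in each of the 17 alternatives that left YB replicate 2 out. YB replicate 2 was at 6.03 CPM, below every AB library, and with it the adjusted p was 0.157 for the sham groups and 0.0769 for the burned groups.

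Every AB library was below every AS library for Sntb1, by 0.50 on the log2 scale (95% interval -0.86 to -0.14), which did not pass (edgeR adjusted p = 0.188). YB and YS overlapped, with a log2 difference of -0.04 (95% interval -0.38 to 0.30). The difference between the 2 burn effects was 0.46 (95% interval -0.04 to 0.95, adjusted p = 0.484). Over the 11 libraries the log2 levels of Sntb1 and Aqp4 had a Pearson correlation of 0.80, the highest of any pair of members. These points share age group and library, so the value is a description.

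Sgcb, β-sarcoglycan, was the other member called between the sham groups, so that 2 of 8 members were called there against 11.8% of all genes. Its level was 198, 171 and 156 CPM in YS (175 ± 21, n = 3) and 127, 150 and 131 CPM in AS (136 ± 12.2, n = 3). It was 1.28-fold higher in YS (log2 0.36, SE 0.11, edgeR adjusted p = 0.0435). This call was close to the threshold: it held in 5 of 17 alternatives without YB replicate 2, held on leaving out YS replicate 3, AS replicate 2 or AB replicate 1 but not on leaving out any 1 of the other 8 libraries (adjusted p from 0.0505 to 0.143), and had an adjusted p of 0.108 with 12 libraries. After burn Sgcb was at 192 and 185 CPM in YB (188 ± 5.20, n = 2) and at 142, 158 and 155 CPM in AB (151 ± 8.30, n = 3). The groups did not overlap, and the log2 difference of 0.32 had an adjusted p of 0.0674, which was 0.0475 in a fit of the 2 burned groups alone and 0.0409 without YS replicate 1. YB replicate 2, at 178 CPM, lay with its group for Sgcb, unlike for Aqp4 and Sntb1. Sntb1 and Aqp4 were the 2 of 8 members called in YB against AB, where 20.7% of all genes were called.

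Dag1 encodes dystroglycan, the laminin receptor of the complex. It was at 250, 176 and 181 CPM in YS (202 ± 41.6, n = 3) and at 252, 271 and 251 CPM in AS (258 ± 11.1, n = 3). The YS replicates were uneven, with replicate 1 just under the AS libraries and the other 2 well below. The log2 difference of -0.36 (95% interval -0.63 to -0.09) did not pass (edgeR adjusted p = 0.0793), and without YS replicate 1 it was -0.54 and passed (adjusted p = 0.00437). Dag1 did not differ between AB, at 237, 255 and 286 CPM, and AS beyond the spread (log2 0.00, 95% interval -0.26 to 0.27). The YB libraries used were at 237 and 242 CPM, 0.26 above YS on the log2 scale (95% interval -0.05 to 0.56, adjusted p = 0.395).

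Dmd, the dystrophin gene, was among the most even members. It was at 94.3, 68.0 and 79.7 CPM in YS (80.7 ± 13.1, n = 3), 79.9 and 73.0 in YB (76.4 ± 4.92, n = 2), 75.9, 81.8 and 91.0 in AS (82.9 ± 7.61, n = 3) and 76.8, 78.8 and 76.3 in AB (77.3 ± 1.33, n = 3). The 4 groups overlapped, and the highest of the 11 libraries was 1.39 times the lowest. The log2 difference was -0.10 for AB against AS (95% interval -0.35 to 0.15), -0.06 for YB against YS (-0.34 to 0.22), -0.05 for YS against AS (-0.30 to 0.20) and -0.01 for YB against AB (-0.29 to 0.27). No Dmd difference passed by edgeR. YB replicate 2 was lower, at 58.4 CPM.

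Sgca, α-sarcoglycan, was at 204, 165 and 196 CPM in YS, 173 and 153 in YB, 177, 181 and 175 in AS and 171, 194 and 185 in AB. Its log2 differences lay between -0.20, for YB against YS (95% interval -0.45 to 0.04), and 0.08, for YS against AS (-0.14 to 0.30), and none passed. Dtna, which encodes the dystrobrevin that pairs with dystrophin, was at 77.9, 81.0 and 90.7 CPM in YS, 84.8 and 75.2 in YB, 87.3, 83.4 and 91.2 in AS and 78.8, 98 and 85.6 in AB. Its log2 differences lay between -0.12, for YB against AB (-0.37 to 0.13), and -0.00, for AB against AS (-0.22 to 0.22). YB replicate 2 was below all other libraries for both genes, at 109 CPM for Sgca and 33.0 CPM for Dtna. Sgcd, δ-sarcoglycan, was the lowest member and the least precise. Its level ran from 2.44 to 8.78 CPM within YS alone, on 10 to 36 counts per library. Its log2 difference for YB against YS was 0.46, with an interval of -0.29 to 1.20, so no change and a rise within that range cannot be told apart.

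The 8 members did not move as a unit. Their median log2 difference was 0.01 for YS against AS, 0.00 for AB against AS, -0.04 for YB against YS and 0.00 for YB against AB, against 0.00, -0.00, 0.01 and 0.01 over all genes tested. No member was called for YB against YS, where edgeR called 0.664% of all genes, DESeq2 called 0 members and 1 had a p under 0.05 before adjustment. By groups that did not overlap, 4 of 8 members separated YS from AS (31.1% of all genes did), 2 separated AB from AS (19.9%), 1 separated YB from YS (32.4%) and 3 separated YB from AB (53.2%).

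**Figure D3:**
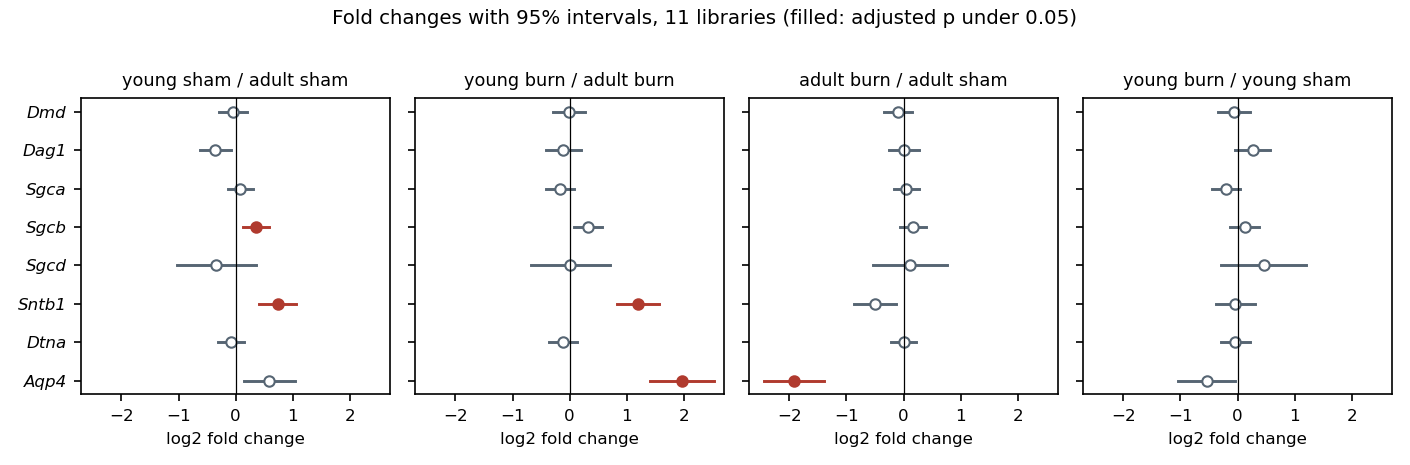
Log2 fold change of each of the 8 genes with its 95% interval in the 4 comparisons of groups, from 11 libraries; filled red points have an adjusted p under 0.05. Aqp4 is at -1.92 for AB against AS, and the intervals of Dmd, Sgca and Dtna include 0 in all 4 panels.

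Of 10 other genes of the complex, 7 had enough counts to test. Nos1, the neuronal nitric oxide synthase that docks on the complex at the membrane, had the largest age difference among them. It was at 15.8, 10.5 and 15.4 CPM in YS (13.9 ± 2.93, n = 3) and 27.9, 38.7 and 40.5 CPM in AS (35.7 ± 6.82, n = 3). The YS values were all below the AS values, with a log2 difference of -1.38 (SE 0.18, edgeR adjusted p = 0.000458). After burn Nos1 was at 16.8 and 14.7 CPM in YB and 36.9, 29.1 and 32.1 CPM in AB, a log2 difference of -1.04 (adjusted p = 0.00249). Nos1 kept both calls with 12 libraries (adjusted p = 0.0026 and 0.00427). In AB against AS its log2 difference was -0.13 (95% interval -0.46 to 0.21) and in YB against YS 0.21 (-0.25 to 0.67).

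Between the sham groups 1 of these 7 genes rose in YS, Cav3, the caveolin of muscle membranes (0.40, edgeR adjusted p = 0.049), and 1 fell, Nos1. Their median was 0.21 against 0.00 over all genes, of which 11.8% were called. The Cav3 adjusted p was 0.403 with 12 libraries. Between the burned groups 2 were higher in YB, Sntb2 and Sspn, and 1 lower, Nos1, where 20.7% of all genes were called. Sntb2, the β2-syntrophin, was at 27.1 and 30.7 CPM in YB and 18.9, 15.9 and 13.4 CPM in AB (log2 difference 0.84, SE 0.15, adjusted p = 0.00205). Both this gene and Sntb1 were thus higher in YB than in AB.

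Sspn, or sarcospan, was 0.41 higher in YB than in AB on the log2 scale (edgeR adjusted p = 0.015), a call that was lost with 12 libraries (0.13, adjusted p = 0.719), since YB replicate 2 was at 54.4 CPM against 112 and 110. Sntb2 and Nos1 kept their calls with 12 libraries. Utrn, the homologue of dystrophin, was at 46.3, 44.4 and 50.5 CPM in YS, 45.9 and 45.4 in YB, 41.6, 35.8 and 43.3 in AS and 38.6, 39.8 and 36.9 in AB. Its difference between the burned ages was 0.25 (95% interval 0.01 to 0.49, adjusted p = 0.122).

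Neither burn comparison gave a call among the 7 genes by edgeR or DESeq2. At an unadjusted p under 0.05 there were 2 for AB against AS and 1 for YB against YS. The closest was Sspn in YB against YS (0.39, edgeR adjusted p = 0.096). Sgcz had no count, Sntg1 had 1 and Sntg2 had 17 over the 12 libraries, so these were not tested.

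**Figure D4:**
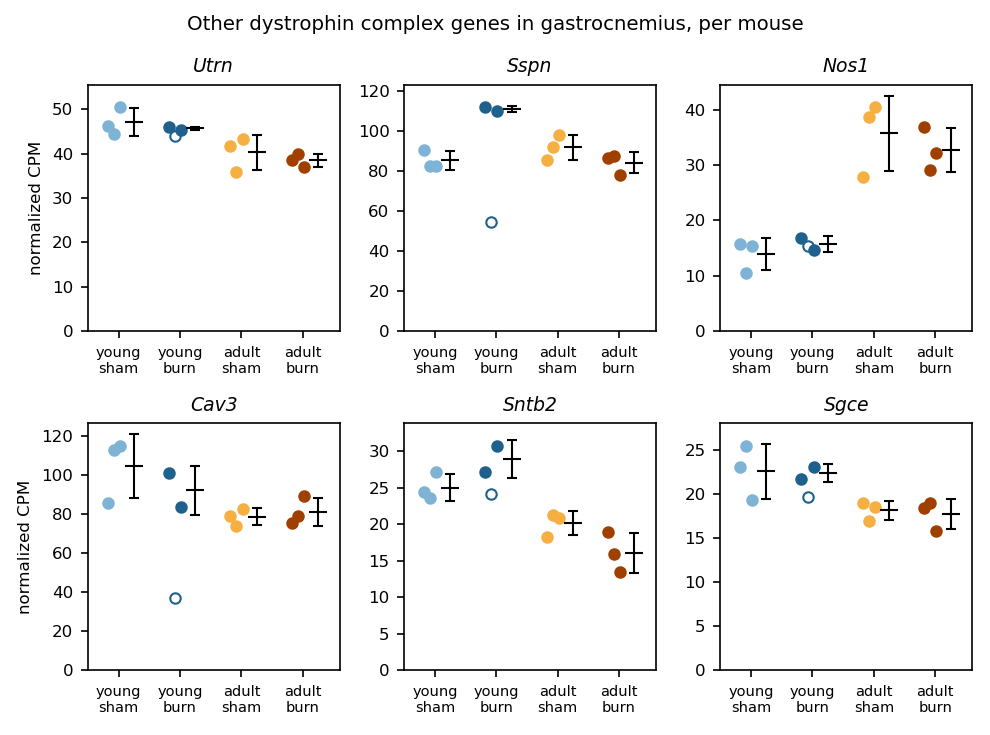
Normalized level (CPM) of 6 other genes of the complex in each mouse, with mean ± SD and YB replicate 2 as an open circle outside the mean. Nos1 is between 10.5 and 16.8 CPM in both young groups and between 27.9 and 40.5 CPM in both adult groups.

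The proteins to which the complex binds in the basal lamina and cytoskeleton were tested as a list of 8 genes. Between the burned groups 6 of 8 were called higher in YB and none lower, where 20.7% of all genes were called. Their median log2 difference was 0.60 against 0.01 over all genes. With 12 libraries 5 of 8 were called higher, where 10.8% of all genes were called. Bgn, the proteoglycan biglycan, was at 204 and 288 CPM in YB and 135, 93.6 and 91.9 CPM in AB (1.21, SE 0.18, edgeR adjusted p = 0.000735). Agrn, or agrin, was 0.92 higher (SE 0.16, adjusted p = 0.0018) and Hspg2, or perlecan, 0.61 higher (SE 0.12, adjusted p = 0.00294), and all 3 kept their calls with 12 libraries. Beside this, fibroblast markers summed to 3120 to 3930 CPM in YB and 2020 to 2420 in AB, with Col1a1 2.22 higher in YB on the log2 scale (adjusted p = 5.54e-05, 0.000771 with 12 libraries) and 1 of 3 fibroblast markers called. Their part in the matrix result was not tested.

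Between the sham groups Lamb1, the laminin β1 chain, was the 1 gene of the 8 called, 0.50 higher in YS (edgeR adjusted p = 0.0186, 0.0555 with 12 libraries). Of all genes 11.8% were called there. The list had no edgeR call in either burn comparison, with 1 gene at an unadjusted p under 0.05 for AB against AS and 4 for YB against YS, where DESeq2 called 1. Lama2, the laminin α2 chain of the muscle basal lamina, was 0.03 higher in AB than in AS and 0.39 higher in YB than in YS (adjusted p = 0.95 and 0.269).

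Of 10 genes that build the sugar chain by which dystroglycan holds laminin, 9 were tested and B4gat1 had no count. In YB against AB 2 of the 9 were called, both lower, which is near the share of 20.7% called over all genes. Their median was -0.16 against 0.01 over all genes. B3galnt2, a sugar transferase, was at 91.4 and 82.6 CPM in YB and 115, 125 and 144 CPM in AB (-0.55, SE 0.13, edgeR adjusted p = 0.0107), and it lost its call with 12 libraries (-0.24, adjusted p = 0.445), since YB replicate 2 was at 150 CPM. Rxylt1, a xylosyltransferase, was at 26.5 and 30.7 CPM in YB and 38.4, 38.1 and 47.5 CPM in AB (-0.53, SE 0.15, adjusted p = 0.0209) and kept its call. No gene of the list was called by edgeR or DESeq2 in the other 3 comparisons of groups, with 1 at an unadjusted p under 0.05 for YS against AS, 0 for AB against AS and 1 for YB against YS.

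Of 11 other aquaporins, 3 were tested. Aqp1, the water channel of capillary endothelium, was at 342, 290 and 324 CPM in AS (318 ± 26.7, n = 3) and 263, 268 and 289 CPM in AB (273 ± 13.7, n = 3), a log2 difference of -0.22 that did not pass (edgeR adjusted p = 0.493). Aqp7, a glycerol channel, was 0.87 higher in YB than in AB (SE 0.21, adjusted p = 0.0114) and kept that call with 12 libraries. Aqp11 held 4 to 15 counts per library over the 11 libraries and passed in none of the 4 comparisons of groups. No aquaporin of this list was called between burn and sham in either age by edgeR or DESeq2, nor was any at an unadjusted p under 0.05.

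Fiber type genes did not follow Aqp4 in every comparison. Myh1 and Myh2, listed here for fast oxidative fibers, moved as Aqp4 did in AB against AS and YB against AB. In YB against YS both were higher (0.58 and 0.63 on the log2 scale, edgeR adjusted p = 0.0894 and 0.195), with Aqp4 at -0.54. In YS against AS both were lower (-0.55 and -0.65), with Aqp4 at 0.59, and edgeR called Myh1 alone of these. In AB against AS both genes of this list were lower. Myh1, the myosin IIx heavy chain, was at 1030, 919 and 930 CPM in AS and 490, 353 and 467 CPM in AB (-1.14, SE 0.14, edgeR adjusted p = 0.00178). Myh2, the myosin IIa heavy chain, was at 774, 734 and 825 CPM in AS and 358, 242 and 205 CPM in AB (-1.54, SE 0.21, adjusted p = 0.00327). Of 7 slow fiber genes, 2 were called lower, of which Myl3 had the smaller p (-1.04, edgeR adjusted p = 0.0259). In this comparison 0.909% of all genes were called. The 7 genes summed to 729, 1630 and 1850 CPM in AS replicates 1, 2 and 3 and 645 to 759 in AB. AS replicate 1 thus lay within the AB range. None of the calls for Myh1, Myh2 and the slow fiber genes held with 12 libraries. The 4 genes of fast glycolytic fibers summed to 47100 to 50700 CPM in AS and 43000 to 56300 in AB, and none was called. The part of fiber type in the Aqp4 result was not tested.

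In YB against AB, where 20.7% of all genes were called, the same 2 fast oxidative genes were higher in YB (Myh1 1.17, edgeR adjusted p = 0.000284, and Myh2 1.51, adjusted p = 0.000695). So were 3 of 7 slow fiber genes, of which Myl2 had the smallest p (1.12, adjusted p = 0.00401). With 12 libraries Myh1 and Myh2 kept these calls, while 0 of the 7 slow fiber genes were called by edgeR (2 had an unadjusted p under 0.05) and their median went from 0.91 to 0.55. Between the sham groups Pvalb, the calcium buffer parvalbumin, was higher in YS (0.82, adjusted p = 0.00215) and Myh1 lower (-0.55, adjusted p = 0.0198), of which Pvalb kept its call with 12 libraries (adjusted p = 0.0373) and Myh1 lost it (adjusted p = 0.157). Among other cell types, endothelial markers summed to 273 to 296 CPM in AS and 246 to 281 in AB, where Kdr was the 1 of 5 called (-0.70, adjusted p = 0.0374, 0.544 with 12 libraries), and to 347 to 428 in YB. Macrophage markers summed to 74.2 to 87.0 CPM in AS and 92.3 to 131 in AB. In young mice they summed to 79.2 to 104 CPM in YS and 128 to 209 in YB. Of these 4 markers edgeR called 0 in either burn comparison, while DESeq2 on 11 libraries called 1 for AB against AS and 4 for YB against YS. For burn beside age edgeR called 2 of the 4 higher, where 2.15% of all genes were called, and 1 with 12 libraries. DESeq2 on 11 libraries called 4 for that term. At an unadjusted p under 0.05 by edgeR there was 1 macrophage marker for AB against AS and 4 for YB against YS. Schwann cell markers were at 83.4 to 156 CPM in YS and 60.5 to 70.7 in AS, beside the higher Sntb1 of YS. The 3 tendon markers summed to 96.1 to 217 CPM in AS and 91.3 to 130 in AB, and to 243 to 282 in YS and 68.4 to 149 in YB. All 3 had an unadjusted p under 0.05 in both burn comparisons, with negative medians (-0.67 in adult and -1.26 in young mice) and no edgeR call. DESeq2 on 11 libraries called 1 of the 3 in each burn comparison. For burn beside age edgeR called all 3 lower (median -0.93), where 2.15% of all genes were called, and 1 kept its call with 12 libraries. The part of these cells in the results for Aqp4 and Sntb1 was not tested.

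The genes with levels most like those of Aqp4, by the Pearson correlation of log2 CPM over 11 libraries among 11877 protein-coding genes, were Smtn (0.97), P2ry1 (0.97), Aig1 (0.96), Spry1 (0.95) and Atxn1 (0.95). All 5 were lower in AB than in AS, by less than Aqp4, with log2 differences from -0.39 for Spry1 to -0.69 for P2ry1, and Smtn was the 1 that passed (-0.66, edgeR adjusted p = 0.0394), a call lost with 12 libraries, where no gene was called lower in AB. For Dmd the closest were BC052040 (0.84), Rmc1 (0.84), Usf3 (0.81), Cnnm3 (0.81) and Map3k20 (0.80), none of which passed in either burn comparison by edgeR. The libraries share group and depth in these correlations, which are descriptions.

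A microRNA known to repress dystrophin, miR-31, was looked up in the small RNA counts of 12 further libraries. Its 5p strand in RefSeq, at 4:88910614-88910635 on the minus strand of GRCm38.p6, is shown with the seed, bases 2 to 8, in capitals because the seed is what pairs with a target.
mmu-miR-31-5p: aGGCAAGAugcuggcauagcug
The mir-31 entry held 2 to 6 counts per library, of totals between 1704531 and 3149396, and summed to 9 counts in YS, 17 in YB, 6 in AS and 8 in AB. The filter on low counts kept 299 of 1227 entries and not this one, so no difference was testable at this depth.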

How the data were processed

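Poly-A RNA of gastrocnemius was sequenced in 12 libraries, 3 mice per group. Per the paper's methods, the authors aligned reads with STAR to GRCm38 and counted them per gene on Gencode M25, and counted miRNAs with featureCounts, and they deposited raw counts. The submitters' processing notes name bcl2fastq 2.20, STAR 2.7.5c and featureCounts 2.0.1. Here, genes with low counts were removed (filterByExpr, minimum count 10, total 15), scaling was TMM, and edgeR 4.0.16 (R 4.3.3, limma 3.58.1) fitted a mean per group on 11 libraries without YB replicate 2, by the quasi-likelihood test, two-sided, called at 0.05 after Benjamini-Hochberg adjustment across the genes tested. The burn term was tested beside age. DESeq2 1.42.0 was an alternative. The SE is the log2 difference over the square root of F. Figures used matplotlib 3.10.9. Gene symbols came from Gencode M21, with 260 identifiers unmatched.

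The members and gene lists were chosen with earlier results of these data known. All members were named with values, as were Utrn, Nos1, Sspn and each other gene of the complex that was called. From the lists of binding partners, glycosylation, aquaporins and fiber type, up to 3 called genes with the smallest p per comparison were named. Other genes of these lists (Lama2, Aqp1, Aqp11), the marker genes Kdr, Col1a1 and Krt10, and genes without counts were named after their values were seen. For Aqp4 and Dmd the 5 protein-coding genes with the highest correlation were named. Some genes of the complex and glycosylation lists are not reported here and were left out of the list counts. Fits were tested on simulated data. The mir-31 tests that were planned were not run, because its counts were below the filter.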

Additional observations from a re-analysis of the deposited data

Results flagged for a closer look

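For Myh1 and Myh2, the 2 genes listed here for fast oxidative fibers, the burn effect differed between ages. This was by the interaction test of edgeR on 11 libraries. The effect in young minus that in adult mice was 1.72 on the log2 scale for Myh1 (SE 0.21, adjusted p = 0.00641) and 2.16 for Myh2 (SE 0.31, adjusted p = 0.0127). With 12 libraries they were 1.49 and 1.81, with an adjusted p of 0.683 for each.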

How the results depend on the processing

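With YB replicate 2 left out, Aqp4 in AB against AS, and Aqp4 and Sntb1 in YB against AB, kept their calls in 17 of 17 alternatives, with log2 differences of -2.22 to -1.61, 1.66 to 2.27 and 1.08 to 1.30. With all 12 libraries the number of members called by edgeR fell from 2 to 0 for YS against AS, from 1 to 0 for AB against AS, from 2 to 0 for YB against AB and from 1 to 0 for the burn term, and DESeq2 on 12 libraries, an alternative chosen after seeing the data, also gave 0 in each of these. Leaving out 1 library at a time gave 1 to 2 members for YS against AS, 2 to 3 for YB against AB and 0 to 1 for the burn term, where YB replicate 3 decides the call. Without a filter on low counts Aqp4 alone was called for YB against YS (count 1, adjusted p = 0.0151) and for the interaction (count 1, adjusted p = 7.66e-08), and all calls for AB against AS rose from 115 to 562 genes, so this setting is the more liberal one, and the cause was not tested. DESeq2 on 11 libraries gave 1 member, Aqp4, for the interaction. Over 896 member results recomputed, 860 kept their side of the threshold, 25 lost and 11 gained a call, and 0 called values changed sign, though 52 uncalled ones did.

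Equal replicate numbers gave no clear sign of paired mice: deviations of same-numbered libraries correlated between -0.17 and 0.13. In the sham groups 0 of 6 libraries, and in the adult groups 3 of 6, were closest to their own number. With so few libraries per group these values cannot show that pairing was absent. With the replicate block, members called for YS against AS went from 2 to 1 (Sgcb adjusted p = 0.0684) and other counts of members called did not change, while calls over all genes went from 115 to 72 for AB against AS, from 84 to 7 for YB against YS, from 12 to 4 for the interaction and from 272 to 172 for the burn term.

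Over all genes, calls with 11 and 12 libraries numbered 1488 and 467 for YS against AS, 115 and 1 for AB against AS, 84 and 8 for YB against YS, 2623 and 1343 for YB against AB, 12 and 0 for the interaction and 272 and 89 for the burn term. DESeq2 on 11 libraries called 211 for AB against AS, 191 for YB against YS and 43 for the interaction, and on 12 libraries 659, 7, 443, 1370 and 1 in the order of the first 5. Without a filter the counts were 593 for YB against YS, 241 for the interaction and 799 for the burn term, by library size alone 67, 353 and 19 for AB against AS, YB against YS and the interaction, and in a fit of the 2 young groups 49. Leaving out 1 library at a time gave 564 to 1772, 25 to 161, 2 to 203, 958 to 2837, 1 to 31 and 75 to 394 in that order. Scaling by library size alone moved the median of all genes by -0.13 for YS against AS, 0.15 for YB against YS and 0.16 for the interaction, and the share of higher calls from 44.8% to 19.7% and from 69% to 95.8% in the first 2, from 83.3% to 100% in the interaction and from 68% to 88.9% in the burn term; under it Dag1 was lower in YS than in AS with an adjusted p of 0.0247. Alternatives for mir-31 were not run because its counts were below the filter. Depth left mir-31 and the genes with few counts untested. Sgcd, with few counts and uneven YS levels, had wide intervals.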
